A study of Mus musculus with 15 samples.

Results

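The steroid-metabolising enzymes described here are 10 genes of mouse liver: Cyp17a1, Hsd3b2, Hsd3b3, Hsd3b5, Hsd3b7, Hsd11b1, Hsd17b2, Srd5a1, Akr1c6 and Akr1d1. They were taken by symbol from a table of 38087 gene rows, and all 10 matched a row and passed the filter on low counts that left 17405 genes for testing. Cyp17a1 and Hsd3b5 passed the filter only through the male libraries, where their counts lay, and could be called only as higher there, so their differences between male and female cells are given as a description without a test. The cells were hepatocytes isolated from livers of CD-1 mice and frozen, which were thawed, plated on collagen at 200000 cells per well and, after 6 h to attach and a change of medium, kept for 24 h in medium with 25% mouse serum. Male hepatocytes received serum of conventionally raised male mice (m_pHep_m_ConvR, 3 libraries). Female hepatocytes received the same male serum (f_pHep_m_ConvR, 3 libraries), serum of conventionally raised females (f_pHep_f_ConvR, 2 libraries, replicates 2 and 3) or serum of germ-free females, which carry no microbiota (f_pHep_f_GF, 2 libraries, replicates 2 and 3). A further 3 libraries (f_pHep_f_GF_GH) came from female hepatocytes in germ-free serum with mouse growth hormone at 8 ng/ml for the last 2 h, where the other groups had vehicle. All groups shared a medium with 0.1 μM dexamethasone, a synthetic glucocorticoid, after plating in 1 μM, and insulin. The labels give neither the number of donor animals per sex nor the ages, so that the sex of the donor and the donor stock cannot be told apart, and male cells in any other serum were not measured.

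Steroid hormones are made from cholesterol mainly in the adrenal gland and gonads, and the liver reduces, oxidises and conjugates them for clearance. Hydroxysteroid dehydrogenases interconvert hydroxyl and keto groups and so raise or lower the activity of androgens, oestrogens and glucocorticoids, and some of the same enzymes act in the synthesis of bile acids. In mice many of these enzymes differ between male and female liver in vivo, where the pattern of growth hormone secretion, acting through the transcription factor STAT5B, is a known source of the difference.

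The 13 libraries held 34097400 to 48742274 counts. Levels are given in CPM, the count scaled by the depth of its library, here on library totals adjusted by TMM. Xist, the RNA of the inactive X chromosome, had 0 to 3 counts in the male libraries and at least 268 CPM in every female library. Among female libraries, replicate 2 in female serum had 481 CPM of Xist against 311 in its partner, and replicate 1 with growth hormone had 685 CPM against 392.3 and 372.4. Female cells in male serum also varied, from 268 to 395 CPM. For Hsd17b2, Akr1c6 and some counts of called genes, results are also given without both libraries rich in Xist, although that leaves 1 library in female serum. For other genes this setting enters only as 1 of the alternatives. All 10 hepatocyte markers, such as Alb and Ttr, were detected in every group, with a summed level of 18960 to 38250 CPM. Of 5 markers of adrenal and gonadal cells, Cyp11a1 and Cyp11b1 had at most 2 counts and Insl3 at most 8 counts in any library, while Star had 1.04 to 2.20 CPM and Cyp21a1 18.4 to 73.5 CPM, and the sum over the 5 ran from 20.3 to 74.8 CPM.

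Levels per length of exon (RPKM, CPM per kilobase of exon) spanned a wide range in male cells. Hsd3b7 was highest at 70.2 RPKM, followed by Hsd17b2 at 37.1 and Hsd11b1 at 27.4. Akr1c6 reached 5.44, Srd5a1 2.29 and Hsd3b5 2.28 RPKM, and Akr1d1, Hsd3b2, Hsd3b3 and Cyp17a1 stayed between 0.118 and 0.460. The length covers every annotated exon base of a gene and can exceed its longest coding transcript. The 2 lengths were 4251 and 1623 bases for Hsd11b1, 6396 and 1533 for Hsd3b3, and 1924 and 1320 for Hsd17b2. The order of genes may therefore change with the length used. Low members carry wide counting error, and Cyp17a1 had at most 14 counts in a library. The 3 genes Hsd3b2 (chr3:98709255-98724543), Hsd3b3 (chr3:98741523-98763127) and Hsd3b5 (chr3:98618634-98630252) lie on the minus strand of a cluster on chromosome 3 (mm10, GENCODE M21). The transcripts of Hsd3b2 and Hsd3b3 were 93.7% identical over aligned bases, and 7.09% of the 100-base windows of Hsd3b2 and 14.85% of those of Hsd3b3 occurred in another gene, so counts of this pair may be shared. Hsd3b2 and Hsd3b3 also overlap Zfp697 on the opposite strand by 99 and 281 bases, and Zfp697 held 15327 counts over the 13 libraries against 348 and 1024. As the strand setting of the counting is not known, reads of such overlaps cannot be told apart. Hsd3b5 was less like these 2, with 78.1% identity to Hsd3b2 and 77.8% to Hsd3b3. Its transcript was 93.1% identical to that of Hsd3b4. Of its 100-base windows 7.79% occurred in another gene (Hsd3b4, Gm10681 or Gm4450), so its counts may be shared as well. The exons of Hsd3b7 (chr7:127800604-127803802) are covered over 62.01% of their length by a read-through model, Gm49388, and over 62.44% by the antisense model 9430064I24Rik, neither of which is a row of the count table.

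The upstream sequences of Hsd3b5 and Hsd3b3 are shown because these genes of the cluster are close in sequence before their start sites. Hsd3b2 lies between them. Hsd3b5 was found mainly in male cells, while the libraries of Hsd3b3 overlapped between male and female cells. The sequences are the 250 bases before each RefSeq start on the minus strand (GRCm38.p6), at chr3:98645535-98645784 for Hsd3b5 and chr3:98763129-98763378 for Hsd3b3, 5′ to 3′, with shared runs of at least 10 bases in capitals.
Hsd3b5: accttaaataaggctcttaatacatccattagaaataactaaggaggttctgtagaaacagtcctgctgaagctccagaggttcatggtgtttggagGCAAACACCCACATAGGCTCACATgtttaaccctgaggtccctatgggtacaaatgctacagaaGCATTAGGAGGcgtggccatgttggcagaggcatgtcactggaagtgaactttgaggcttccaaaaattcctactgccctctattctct
Hsd3b3: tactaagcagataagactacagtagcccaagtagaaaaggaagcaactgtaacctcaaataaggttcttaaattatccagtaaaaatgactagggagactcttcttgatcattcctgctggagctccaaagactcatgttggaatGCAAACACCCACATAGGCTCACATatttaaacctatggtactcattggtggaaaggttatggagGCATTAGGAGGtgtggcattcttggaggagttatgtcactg
The windows aligned over 199 bases with 151 identical (75.9%), and the longer of the 2 shared runs had 24 bases. The window of Hsd3b2 aligned with either over no more than 36 bases. The RefSeq start of Hsd3b5 lies 15282 bases from the GENCODE start of the gene, and which start these cells use was not tested. RefSeq held a window for 8 of the 10 genes, without Cyp17a1 and Hsd17b2. The RefSeq start of Hsd11b1 likewise lay 21715 bases from its GENCODE start. A STAT motif, TTCNNNGAA on either strand, occurred in 1 of the 8 windows, that of Hsd3b7, where TTCCTGGAA begins 21 bases before the start, and in 7.0% of 32851 windows of all genes. The letters TATAAA occurred in the window of Akr1c6 alone among the 8 (12.4% of all windows) and TGTTCT, a receptor half-site, in that of Hsd3b2 alone (16.1%).

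Male hepatocytes held more RNA of most of these enzymes than female hepatocytes in the same male serum. Of the 8 genes that passed the low-count filter in the female libraries as well, 6 were higher in male cells and 0 lower at an adjusted p under 0.05 in the quasi-likelihood test of edgeR. At an unadjusted p under 0.05 also 0 were lower, as with DESeq2. Among all genes tested, 36.7% were called, 17.6% as higher and 19.0% as lower. The median difference of these 8 genes was 1.15 on the log2 scale, against -0.02 over all genes. Cyp17a1 and Hsd3b5 are left out of these counts, because they could be called only as higher. In 5 of the 8, every male library lay above all 10 female libraries whatever their serum, which was so for 13.8% of all genes.

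**Figure D1:**
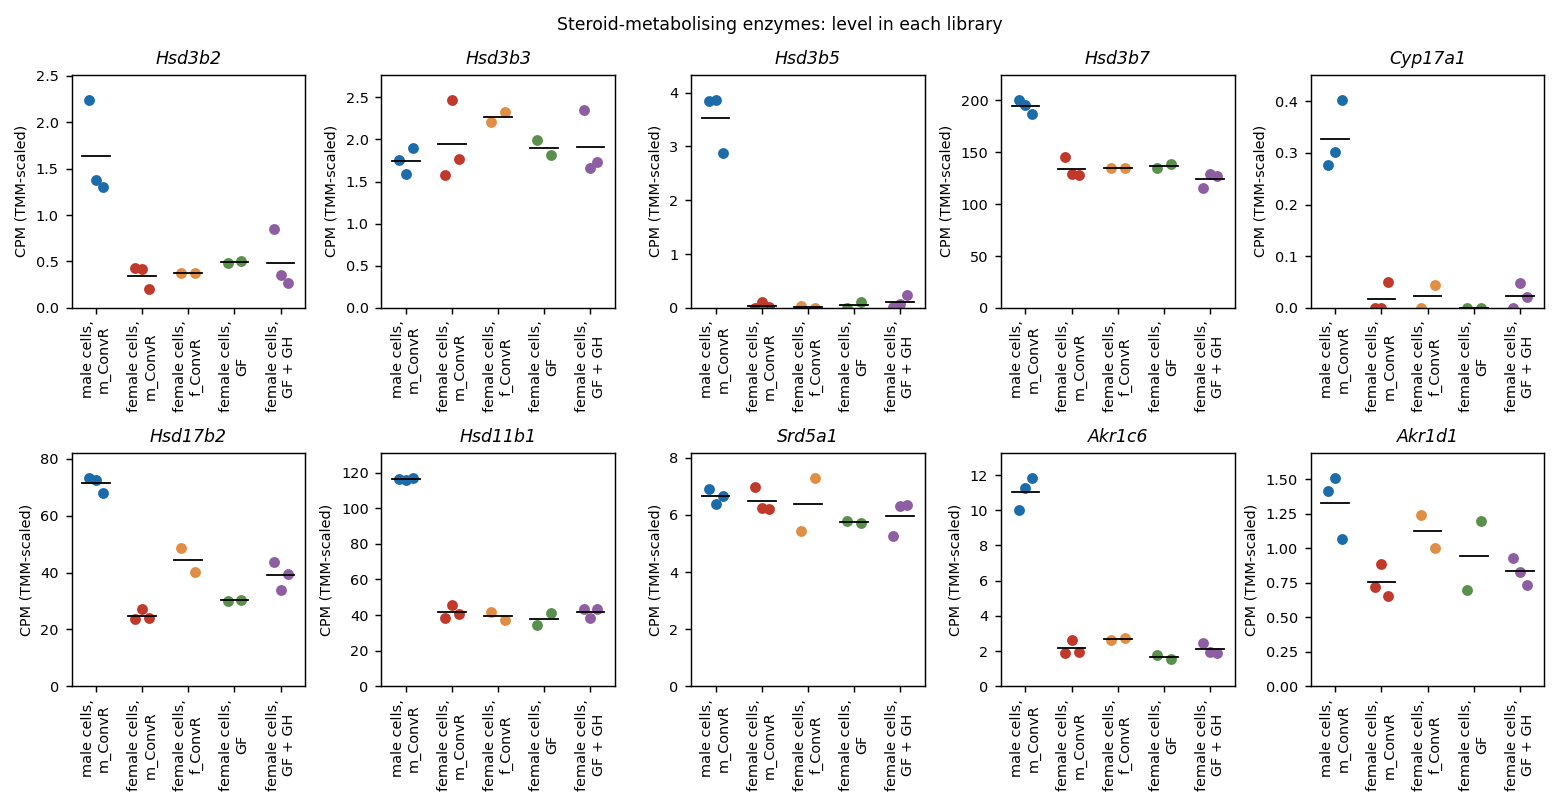
Level of each enzyme gene in each of the 13 libraries, in CPM on library totals scaled by TMM, with a bar at the group mean and axes from 0. The male libraries of Hsd11b1 sit at 116 to 117 CPM, above all female libraries, while those of Srd5a1 lie among them.

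Hsd3b5, a keto-steroid reductase known as a male-predominant liver gene, had 125, 141 and 100 counts in the male libraries and 0, 4 and 1 in female cells in male serum. In CPM these were 3.84, 3.87 and 2.88 against 0, 0.111 and 0.0253. The male and female libraries lay far apart. Pooled counts gave a ratio of 79.7 with a 95% Clopper-Pearson interval of 33.8 to 247, which covers counting error only. Its other female libraries held 0 to 12 counts, the 12 in replicate 3 with growth hormone.

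Hsd3b2, which converts hydroxy-Δ5 steroids to keto-Δ4 steroids, had 2.24, 1.37 and 1.30 CPM in male cells. Female cells in male serum had 0.428, 0.417 and 0.202 CPM, so that no female library reached the lowest male one. The difference was 2.22 ± 0.42 (SE) on the log2 scale (adjusted p = 0.00053), from 168 pooled counts against 39. Its other female libraries ran from 0.265 to 0.846 CPM, with the highest in replicate 1 with growth hormone.

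Hsd3b3, its near-identical neighbour, showed no such separation. The male libraries had 1.75, 1.59 and 1.90 CPM and the female libraries in male serum 1.58, 2.47 and 1.77, so that the groups overlapped. The difference was -0.15 on the log2 scale with a 95% interval from -0.59 to 0.30 (adjusted p = 0.62). Hsd3b5 and Hsd3b3, whose upstream windows share the runs printed above, had pooled ratios of male to female counts of 79.7 (33.8 to 247) and 0.904 (0.738 to 1.11). Hsd3b1, Hsd3b4 and Hsd3b6 of the same family had at most 5 counts in any library and were not tested. Counts of the similar models Gm10681 and Gm4450 were not examined.

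Cyp17a1 (chr19:46667165-46673172), which makes androgen precursors in the gonads through its hydroxylase and lyase activities, was the lowest of the 10 genes. It had 9, 11 and 14 counts in the male libraries and 0, 0 and 2 in female cells in male serum. The male libraries lay apart at a very low level, and the pooled ratio was 18.5 with a counting interval of 4.74 to 159. Its other female libraries held 0 to 2 counts, so that no fold is given among the female groups. In a fit of these 2 groups alone it did not pass the low-count filter.

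Hsd17b2 (chr8:117701904-117759027), which oxidises oestradiol to oestrone and testosterone to androstenedione, was high in male cells with 73.3, 72.6 and 68.1 CPM. Female cells in male serum had 23.5, 27.1 and 24.0 CPM. The groups did not overlap, and the difference was 1.52 ± 0.093 on the log2 scale (adjusted p = 2.8e-09), which is 2.88 times by pooled counts.

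Akr1c6 (chr13:4434306-4457877), a hepatic aldo-keto reductase that reduces keto-steroids such as androstenedione, had 10.04, 11.28 and 11.84 CPM in male cells. Female cells in male serum had 1.90, 2.61 and 1.97 CPM. All male libraries were above all female ones, by 2.36 ± 0.15 on the log2 scale (adjusted p = 4.7e-09).

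Hsd11b1 (chr1:193221634-193264075), the reductase that regenerates active glucocorticoid from its inactive keto form, had 116, 116 and 117 CPM in male cells. Female cells in male serum had 38.1, 45.6 and 40.6 CPM. The male libraries were close to each other and far from the female ones, with a difference of 1.49 ± 0.082 on the log2 scale (adjusted p = 7.2e-10).

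The ring reductases differed from each other. Srd5a1 (chr13:69573449-69611442), a reductase that turns testosterone into the stronger androgen dihydrotestosterone, had 6.91, 6.40 and 6.66 CPM in male cells and 6.99, 6.25 and 6.22 CPM in female cells in male serum. These groups overlapped, and the difference was 0.036 on the log2 scale with an interval from -0.23 to 0.30 (adjusted p = 0.85). Over 16.36% of its exon length Srd5a1 shares bases with the model Gm17108 on the same strand. Akr1d1 (chr6:37530173-37568815), which reduces the double bond of Δ4 steroids on the other face of the ring and acts in bile acid synthesis, had 1.41, 1.51 and 1.07 CPM in male cells. It had 0.723, 0.889 and 0.658 CPM in female cells in male serum, so that these groups lay apart, by 0.81 ± 0.27 on the log2 scale (adjusted p = 0.026). This call was lost without male replicate 1 (adjusted p = 0.068) or 2 (0.091) and without female replicate 1 (0.067) or 3 (0.079), and over 12 alternatives the adjusted p ran from 0.021 to 0.091. Its male libraries also overlapped those of female cells in female serum, which had 1.24 and 1.00 CPM.

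Hsd3b7, which acts on sterol precursors of bile acids rather than on hormones, was high in all cells. It had 201, 195 and 187 CPM in male cells and 145, 130 and 128 CPM in female cells in male serum. The groups lay apart with a smaller difference, 0.53 ± 0.064 on the log2 scale (adjusted p = 7.0e-06).

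**Figure D2:**
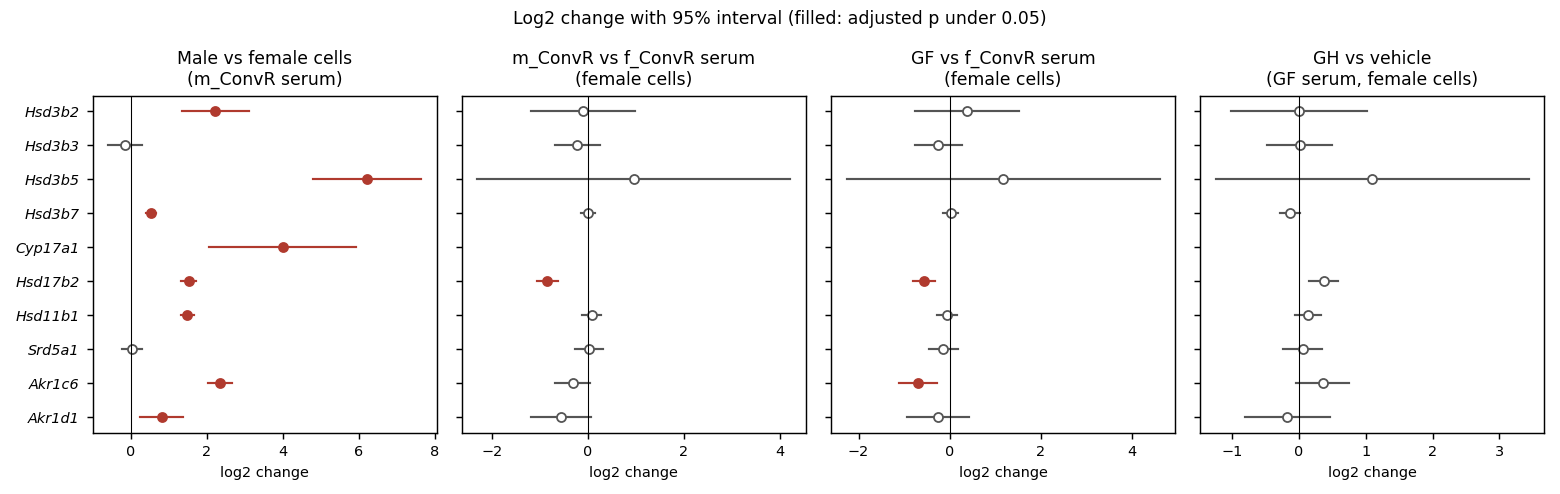
Log2 difference (x axis) of each enzyme gene in the 4 comparisons, with its 95% interval; filled red points passed an adjusted p of 0.05. In the first panel 8 of 10 genes are filled, all to the right of 0 and among them Cyp17a1 and Hsd3b5, which passed the low-count filter only through the male libraries, and in the serum comparisons Hsd17b2 lies to the left; Cyp17a1 is left out of 3 panels because both groups had no more than 3 pooled counts.

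General markers of hepatocytes moved with the enzymes between male and female cells, and their part in the result was not tested. Over all genes, 17.6% were higher and 19.0% lower in male cells. Of 10 hepatocyte markers, 8 were higher and 1, Hnf4a, was lower in male cells, with a median difference of 1.27 on the log2 scale. Their summed level was 37390 to 38250 CPM in male cells and 19830 to 21960 CPM in female cells in male serum. Sinusoidal endothelial markers were higher for 5 of 6 genes, summing to 44.8 to 47.1 CPM against 13.5 to 16.3. Of 7 macrophage markers tested only Cd68 was higher in male cells, and the sum over 9 ran from 149 to 169 CPM against 80.2 to 100.1. Stellate cell and fibroblast markers had 2 of 6 higher (Pdgfrb, Dcn) and Col1a1 lower, with sums of 20.95 to 22.73 against 12.59 to 17.32 CPM, and cholangiocyte markers had Epcam higher and Sox9 lower of 5, with sums of 27.76 to 33.99 against 33.96 to 41.09 CPM. In such bulk samples fewer cells of a type and less RNA per cell cannot be told apart.

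**Figure D3:**
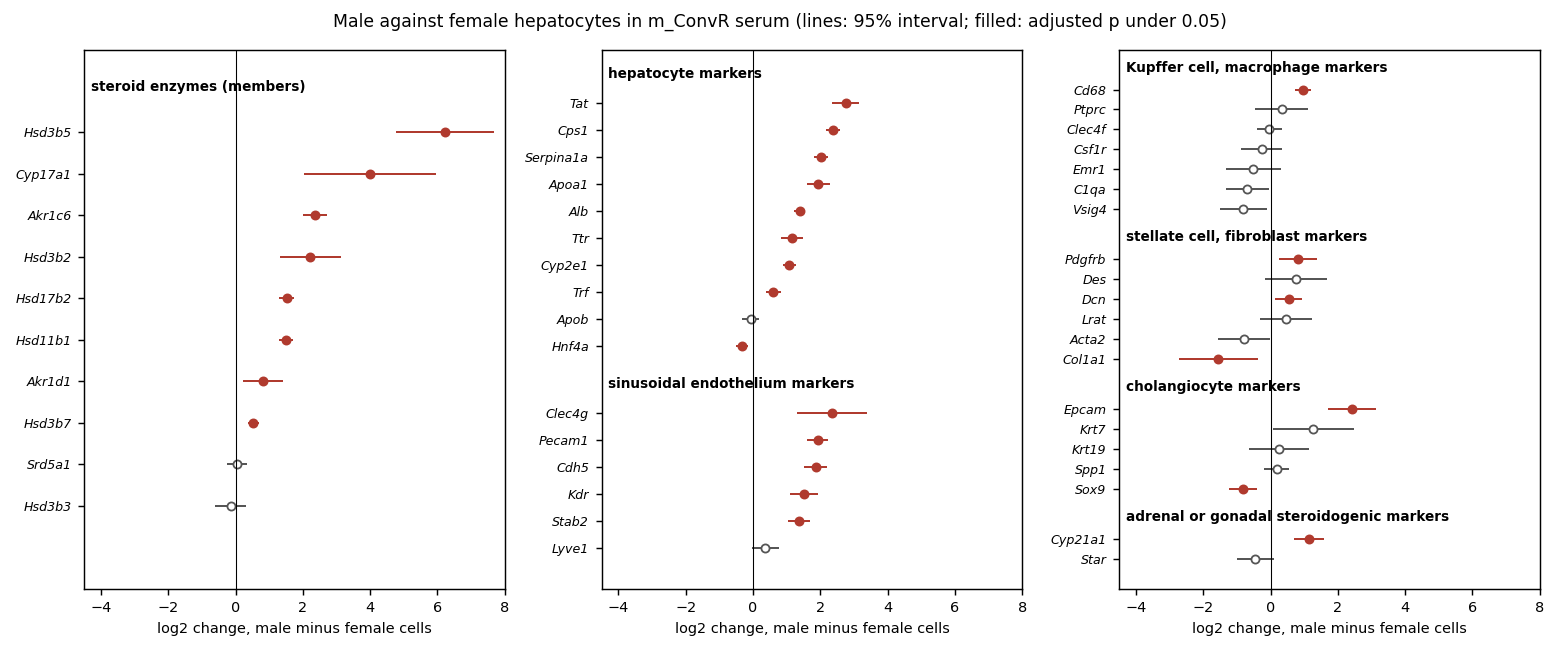
Log2 difference between male and female hepatocytes in male serum for the enzyme genes and for markers of liver and steroidogenic cell types, with 95% intervals; filled red points passed an adjusted p of 0.05. Hepatocyte and endothelial markers lie mostly to the right of 0, as do 9 of the 10 enzyme genes, while macrophage markers lie on both sides. Of the enzyme genes 8 are filled, among them Cyp17a1 and Hsd3b5, which could be called only as higher in male cells. Emr1 is the listed symbol of Adgre1.

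Among female hepatocytes few of these enzymes differed between sera, and Hsd17b2 was called in both serum comparisons. Male against female serum gave 1 called gene of 10, Hsd17b2, lower in male serum, where 8.80% of all genes were called (3.95% higher, 4.85% lower). Germ-free against conventional female serum gave 2 of 10, Hsd17b2 and Akr1c6, both lower in germ-free serum, where 6.41% of all genes were called (2.86% higher, 3.54% lower). The median difference over the 9 genes with a fold was -0.11 for male against female serum and -0.15 for germ-free against female serum on the log2 scale, against 0.0015 and -0.0026 over all genes. Both comparisons use the same 2 libraries in female serum, so they are not independent of each other. Hepatocyte markers moved as well, and their part in these results was not tested: 1 of 10 was higher and 3 were lower in male serum, and 5 were lower in germ-free serum. Their sums were 20800 to 24610 CPM in female serum, 19830 to 21960 in male serum and 18960 to 19300 in germ-free serum. Of the markers of other liver cells, Cd68 of macrophages was lower, and of the cholangiocyte markers Sox9 was higher and Spp1 lower, in male serum.

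Hsd17b2 had 48.8 and 40.4 CPM in female serum, 23.5, 27.1 and 24.0 CPM in male serum, and 30.0 and 30.4 CPM in germ-free serum. With growth hormone in germ-free serum it had 43.78, 33.96 and 39.37 CPM. Ordered by group means, it ran from male cells (71.3 CPM) through female cells in female serum (44.6), in germ-free serum with growth hormone (39.0) and in germ-free serum alone (30.2) to female cells in male serum (24.8). The libraries of female serum and of germ-free serum with growth hormone overlapped, and the other neighbours in this order did not.

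The difference between male and female serum was -0.84 ± 0.10 on the log2 scale (adjusted p = 9.9e-05). It was called in all 12 alternatives, with values from -0.98 to -0.70, and was -0.71 without both libraries rich in Xist (adjusted p = 0.00065). The lowest and the highest group mean of Hsd17b2 were both in male serum, in female and in male cells. The difference between germ-free and female serum was -0.56 ± 0.11 (adjusted p = 0.0073). It fell short of the threshold without replicate 2 in female serum (-0.42, adjusted p = 0.12), without germ-free replicate 2 (0.066) or 3 (0.059) and without both libraries rich in Xist (-0.42, 0.064), and over 11 alternatives the adjusted p ran from 1.0e-06 to 0.12.

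Akr1c6 had 2.62 and 2.77 CPM in female serum and 1.75 and 1.56 CPM in germ-free serum. The groups lay apart, by -0.70 ± 0.20 on the log2 scale (adjusted p = 0.047). Leaving out any 1 of these 4 libraries ended the call: the adjusted p was 0.17 without replicate 2 and 0.12 without replicate 3 in female serum, and 0.13 and 0.24 without germ-free replicates 2 and 3. It was 0.13 without both libraries rich in Xist and 0.026 to 0.24 over all alternatives. In male against female serum Akr1c6 differed by -0.32 with an interval from -0.69 to 0.05 (adjusted p = 0.28).

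Hsd3b7 and Hsd11b1 had narrow intervals around 0 between sera in female cells, unlike Hsd17b2, which was also of high level. Hsd3b7 differed by -0.0042 (interval -0.16 to 0.15) for male against female serum and by 0.022 (-0.14 to 0.19) for germ-free against female serum, on the log2 scale. Hsd11b1 differed by 0.072 (-0.12 to 0.27) and by -0.058 (-0.27 to 0.15). Its female libraries ran from 34.6 to 45.6 CPM over all sera, and those of Hsd3b7 from 116 to 145 CPM. Srd5a1 ran from 5.27 to 7.30 CPM and Hsd3b3 from 1.58 to 2.47 CPM over the female libraries, with all groups overlapping their neighbours. Akr1d1 differed by -0.57 (-1.20 to 0.05) for male against female serum, an interval that does not exclude a change as large as that of Hsd17b2.

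Growth hormone for 2 h in germ-free serum gave 0 called genes of 10, where 0.586% of all genes were called (0.511% higher, 0.0747% lower). At an unadjusted p under 0.05 in edgeR 1 gene was higher, Hsd17b2, which DESeq2 called. Hsd17b2 had 30.0 and 30.4 CPM with vehicle and 43.78, 33.96 and 39.37 CPM with the hormone, with all 3 above both, a difference of 0.37 ± 0.10 on the log2 scale (interval 0.15 to 0.59, adjusted p = 0.15). The adjusted p was 0.048 with DESeq2, 0.0033 without the low-count filter and 0.035 without replicate 2 with growth hormone, within a range of 0.0033 to 0.55 over 12 alternatives, and 0.37 without both libraries rich in Xist. The libraries with vehicle are the germ-free libraries of the comparison with female serum, so a low value there lowers the one difference and raises the other. Akr1c6 differed by 0.35 (-0.04 to 0.75) and Hsd11b1 by 0.14 (-0.05 to 0.34).

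Other genes of steroid metabolism and its control were read from 10 lists with 85 genes, of which 83 matched and 69 were tested. Between male and female cells 22 were higher and 15 lower in male cells, with a median of 0.11 on the log2 scale, where 17.6% of all genes were higher and 19.0% lower. Male against female serum gave 3 higher and 15 lower (median -0.17), where 3.95% of all genes were higher and 4.85% lower. Germ-free against female serum gave 1 higher and 18 lower (median -0.26), where 2.86% were higher and 3.54% lower. Without replicate 2 in female serum the called genes fell from 18 to 10 in the former and from 19 to 8 in the latter. In the latter 8 remained without germ-free replicate 2 and 7 without replicate 3, and 10 without both libraries rich in Xist.

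Among other 17β-hydroxysteroid dehydrogenases, 2 of 8 tested were higher and 0 lower in male cells, where 17.6% of all genes were higher and 19.0% lower. Hsd17b13, a lipid droplet enzyme, had 110, 103 and 103 CPM in male cells against 8.89, 8.89 and 10.4 in female cells in male serum, a difference of 3.48 ± 0.11 on the log2 scale. In female serum it had 25.4 and 24.8 CPM and in germ-free serum 13.0 and 13.0, so that its groups ran in the order seen for Hsd17b2. It was lower in male than in female serum (-1.42 ± 0.12, adjusted p = 3.4e-06) and lower in germ-free serum (-0.95 ± 0.13, adjusted p = 0.00068). Hsd17b6, which oxidises androstanediols, was higher in male cells by 1.77 ± 0.21. Of 9 other reductases tested, 5 were higher and 1 lower in male cells (17.6% and 19.0% of all genes were). These included the aldo-keto reductases Akr1c19 (2.62 ± 0.34), Akr1c12 (0.57 ± 0.090) and Akr1c13 (0.55 ± 0.083), and the lower one was Hsd11b2, which inactivates glucocorticoid (-1.60 ± 0.52, adjusted p = 0.025). The call on Hsd11b2 was lost without male replicate 2 or 3 (adjusted p = 0.086 and 0.11) or female replicate 1 or 2 (0.068 and 0.051), over alternatives from 0.011 to 0.11.

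**Figure D4:**
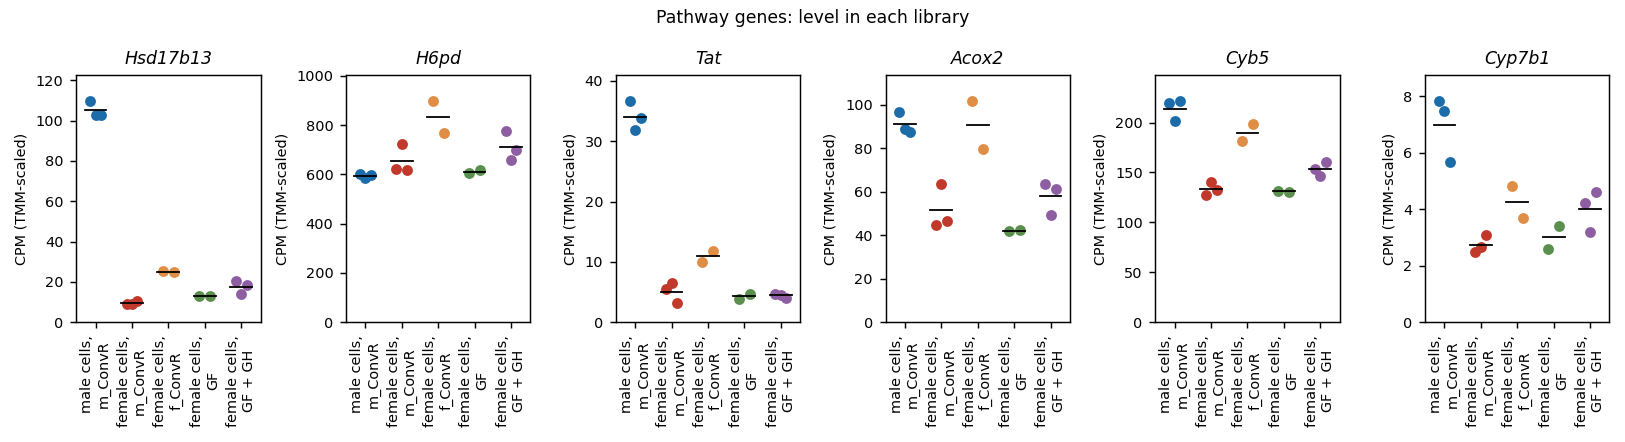
Level of 6 other pathway genes in each library, in CPM on library totals scaled by TMM, with bars at group means and axes from 0. Hsd17b13 is highest in male cells at 103 to 110 CPM and lowest in female cells in male serum.

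Of 2 tested genes of adrenal and gonadal steroid synthesis, Cyp21a1, the steroid hydroxylase of the adrenal cortex, was higher in male cells. It had 70.6, 62.5 and 73.5 CPM against 24.1, 38.0 and 31.3 in female cells in male serum (1.15 ± 0.19, adjusted p = 0.00020). Its exons overlap those of the pseudogene Tnxa on the opposite strand by 102 bases, and Tnxa held 374 counts over the 13 libraries against 18265 for Cyp21a1. Star, which brings cholesterol into mitochondria, had 1.04 to 2.20 CPM over these libraries and differed by -0.45 (interval -0.96 to 0.06).

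Of 10 bile acid genes, 7 were higher in male cells (17.6% of all genes were) and the other 3 were not called. They included Cyp7b1, the hydroxylase of the alternative pathway (1.34 ± 0.18), the carrier and thiolase Scp2 (1.33 ± 0.062), the side-chain oxidase Acox2 (0.81 ± 0.12) and the conjugating enzyme Baat (0.80 ± 0.20). In female cells Acox2 had 102 and 79.9 CPM in female serum, 44.9, 63.9 and 46.7 in male serum, and 41.9 and 42.5 in germ-free serum. It was lower in male serum (-0.81 ± 0.14) and in germ-free serum (-1.11 ± 0.15) than in female serum, and kept both calls in every alternative. Cyp7b1 did not pass the test in either serum comparison (adjusted p = 0.062 and 0.20). For male against female serum it was called lower in 3 of 12 alternatives, and for germ-free serum in 0 of 11. The 3 were DESeq2 (adjusted p = 0.033), unscaled library totals (0.047) and no low-count filter (0.0092).

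Redox partners supply electrons or cofactor to these enzymes. Por, the reductase that serves microsomal P450 enzymes, was lower in male cells (-0.78 ± 0.066), as was the mitochondrial ferredoxin Fdx1 (-0.96 ± 0.13). Cytochrome b5, listed as Cyb5 and an activator of the lyase step of CYP17A1, was higher in male cells (0.68 ± 0.063). It was lower in male serum (-0.51 ± 0.069) and in germ-free serum (-0.53 ± 0.077) than in female serum. H6pd, which supplies NADPH to the enzyme of Hsd11b1, had 601, 586 and 597 CPM in male cells and 623, 722 and 617 CPM in female cells in male serum, a difference of -0.14 (interval -0.30 to 0.02, adjusted p = 0.18). It was lower in male serum (-0.35 ± 0.085) and in germ-free serum (-0.45 ± 0.094) than in female serum, where it had 898 and 768 CPM, but neither call held without replicate 2 in female serum (adjusted p = 0.21 and 0.14, the highest over all alternatives). The former was also lost without female replicate 1 or 3 in male serum (0.065 and 0.052) and the latter without germ-free replicate 2 or 3 (0.078 and 0.064). Of 3 conjugating enzymes tested, the sulfotransferases Sult2a8 (listed as 2810007J24Rik) and Sult1e1 were higher in male cells by 1.96 ± 0.16 and 0.59 ± 0.12.

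Of 8 receptors tested, 1 was higher and 2 were lower in male cells (17.6% and 19.0% of all genes were). Nr3c1, the glucocorticoid receptor, had 87.4, 93.2 and 86.1 CPM against 81.2, 82.3 and 91.4 and was called in none of the 4 comparisons, with unadjusted p values of 0.30, 0.011, 0.013 and 0.19. Without replicate 3 of female cells in male serum it was called lower in male than in female serum (-0.25, adjusted p = 0.034, against up to 0.35 in the other alternatives). Known glucocorticoid targets had 3 of 10 higher and 3 lower in male cells, where 17.6% of all genes were higher and 19.0% lower. Tat and Pck1, enzymes of amino acid breakdown and glucose synthesis, were higher by 2.76 ± 0.17 and 2.30 ± 0.12, and Tsc22d3, a classic glucocorticoid-induced gene, was lower (-0.53 ± 0.065). In female cells Tat had 9.97 and 11.8 CPM in female serum, 5.54, 6.45 and 3.16 in male serum and 3.87 and 4.71 in germ-free serum, and both differences were called in every alternative (-1.11 ± 0.19 and -1.35 ± 0.22). Zbtb16, another gene that glucocorticoid induces, was lower in male serum (-0.65 ± 0.084) and germ-free serum (-0.83 ± 0.093), and Errfi1 likewise (-0.86 ± 0.096 and -0.60 ± 0.11), while Sgk1 was higher in male serum (0.80 ± 0.12).

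Of 12 regulators tested, 5 were lower in male cells (19.0% of all genes were) and the other 7 were not called. They included Bcl6, a repressor of female-biased liver genes (-0.76 ± 0.11), Stat5a (-0.71 ± 0.078), Foxa2 (-0.63 ± 0.084) and Hnf4a (-0.33 ± 0.074), with Stat5b at -0.30 ± 0.060 (adjusted p = 0.00088). With growth hormone, where 0.586% of all genes were called, Bcl6 was the called gene of the 69, at 53.1 and 43.8 CPM in germ-free serum and 26.2, 33.7 and 28.5 CPM with the hormone (-0.72 ± 0.12, adjusted p = 0.0061). That call was lost without germ-free replicate 2 (-0.57, adjusted p = 0.22) and held in the other 11 alternatives. Stat5b differed by 0.036 (interval -0.10 to 0.18), 0.069 (-0.08 to 0.22) and -0.036 (-0.18 to 0.10) in the comparisons of male serum, germ-free serum and growth hormone. In the serum comparisons, 16 genes each were called among those named by rule. For male serum 7 of them lost the call without replicate 2 in female serum, with adjusted p values from 0.073 for Nr5a2 to 0.21 for H6pd, among them Baat, Cyp8b1, Nr1i2 and Bcl6. For germ-free serum 10 lost it in 1 or more alternatives, among them Baat, Scp2, H6pd, Nr1i2, Nr1h4, Pck1, Bcl6, Nr5a2 and Foxa2.

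The genes of most similar pattern were sought for the 5 enzymes whose group means spanned more than 1 log2 unit on the scale of log2(CPM + 0.5), over 13 libraries and 11861 genes. The measure was the root mean square difference of centred values, where 0 is identity, and all pairs share libraries and depth. Hsd11b1 was closest to Apoh (0.044), Vtn (0.065) and C4bp (0.074), secreted plasma proteins. Akr1c6 was closest to Pck1 (0.10), Cps1 (0.15) and Apoa4 (0.16). For Hsd17b2 the nearest were AI182371 (0.12), Gpt2 (0.12) and Serpina10 (0.13). Hsd3b5 was nearest to Serpina1d (0.19), Fabp1 (0.20) and C8a (0.20), and Hsd3b2 to Cryl1 (0.23), Dpysl3 (0.23) and Ambp (0.24). All female group means of these 2 enzymes lay below the added 0.5 CPM, which shrinks their differences on this scale. Their matches therefore depend on that constant and do not mean equal folds. In male serum Serpina1d had means of 172.3 CPM in male and 20.45 in female cells, against 3.53 and 0.0455 for Hsd3b5. Dpysl3 had 7.04 and 3.50 CPM, against 1.64 and 0.349 for Hsd3b2.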

How the data were processed

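RNA was extracted from 15 samples in 5 groups, depleted of ribosomal RNA and sequenced as stranded libraries, per the labels' protocols. The authors deposited unscaled whole-number counts of reads in the exons of each gene. The submitters' processing notes name STAR 2.4.0i and mm10, and for the counting program or its strand setting the entry is "not given in the sources used here". Of 15 value columns, 2 share a header name and were not used, which left 13 libraries. The labels do not say that replicates are separate cultures or donors, so p-values measure the spread between these samples, which may be technical. The samples were not treated as paired by replicate number. Deviations from group means correlated weakly between libraries of the same number (-0.0159 to 0.126), and groups this small cannot settle pairing. Replicates differed by more than counting noise (chi-square per degree of freedom from 5.46 to 53.4).

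Counts were scaled by TMM, filtered by filterByExpr (minimum count 10) and fitted in 1 model of the 5 groups (edgeR 4.0.16, 8 residual degrees of freedom). The 4 comparisons were tested two-sided by the quasi-likelihood F test with Benjamini-Hochberg adjustment over 17405 genes. The common biological coefficient of variation was 9.02%. Exon lengths came from GENCODE M21 and upstream sequences from RefSeq (GRCm38.p6). On simulated counts for 17405 genes, 75.5%, 65.5%, 69% and 73.5% of 200 genes with a log2 change of 1 were recovered in the comparisons of cell sex, male serum, germ-free serum and growth hormone. Of the calls 6.21%, 2.96%, 4.17% and 5.77% were false. Only those 200 genes differed in each simulation, while 36.7% of genes were called between male and female cells. Recovery in the real tests may therefore differ.

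The members and lists were chosen with earlier results of these data known. Named are the 10 members, up to 4 called genes per list with the largest change, and Cyp7b1, Hsd3b6, H6pd, Nr3c1, Bcl6 and Stat5b whatever their values; genes of similar pattern had a mean of at least 1 CPM, without predicted models. Some genes that this rule names are not reported here. Alternatives were DESeq2 1.42.0 and its size factors, unscaled library totals, no filter, fits of 2 groups, a replicate block, each library left out and both libraries rich in Xist left out.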

Additional observations from a re-analysis of the deposited data

How the results depend on the processing

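No difference changed direction among the calls named. Between male and female cells Hsd3b2, Hsd3b7, Hsd11b1, Hsd17b2 and Akr1c6 stayed called in all 12 alternatives, and Akr1d1 in 8 of 12. The 1 enzyme called in male against female serum stayed in every alternative. With DESeq2, growth hormone gave 1 enzyme, 4 pathway genes and 272 genes in all; without a low-count filter it gave 1, 12 and 796, and germ-free serum 1731 genes in all. Fits of only the 2 groups gave 468 genes for male against female serum, 1 enzyme and 611 genes for germ-free serum, and 2 pathway genes and 156 genes for growth hormone. With a replicate block, although pairing by number was not settled, germ-free serum gave 1 enzyme (Akr1c6 was lost, adjusted p = 0.070) and growth hormone 62 genes. Leaving out each library gave 663 to 1652 genes and 10 to 22 pathway genes for male against female serum; 0 to 1 enzymes, 7 to 17 pathway genes and 274 to 1225 genes for germ-free serum; and 0 to 1 enzymes, 0 to 2 pathway genes and 33 to 190 genes for growth hormone. Without both libraries rich in Xist male against female serum gave 825 genes, and germ-free serum 0 enzymes, 10 pathway genes and 367 genes. Apart from the smaller number of libraries in those fits, the cause was not tested. Groups of 2 libraries limit the germ-free comparison, and low counts limit Cyp17a1, Hsd3b5 and Hsd3b2 in female cells.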
